A study of Homo sapiens with 2 samples.

Results

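Aminoacyl-tRNA synthetases are the enzymes that join each amino acid to its tRNA. Their mRNAs were compared between K562 cells with an SMC1A guide and K562 cells with a control guide. The set held 35 genes out of 62702 rows of the deposited table, matched by symbol: 19 genes of cytosolic enzymes and 16 of mitochondrial enzymes, whose symbols end in 2. All 35 had a row, and all 35 reached 100 counts summed over both libraries, as did 11321 rows in all. Aspartate is the one amino acid with no gene in the set.

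K562 is an established line from a human chronic myeloid leukemia and makes globins. Both libraries came from K562 cells labelled WT in the titles and E50_dCas9-KRAB as genotype, where E50 is not explained. dCas9-KRAB is a nuclease-dead Cas9 fused to a repressor domain, and a guide RNA brings it to the promoter to be silenced. The SMC1A guide targets the gene of a core subunit of the cohesin ring, and the control guide was carried by the other library. Guides came on a lentivirus with a blue fluorescent marker, cells were kept in 1 µg/ml puromycin from day 2 to day 6 and sorted for high blue fluorescence, and the labels state no clone. Each guide had 1 library, so every difference is between 2 libraries, has no replicate check and carries no p-value, and its 95% interval (exact, Clopper-Pearson) covers counting error only.

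The SMC1A library held 16864207 counts and the control library 18349209. SMC1A itself was at 16.3 CPM (counts per 1000000 of the TMM-scaled library size) with the SMC1A guide and 460.4 CPM with the control guide. The K562 markers HBG1, HBZ, GATA1 and TFRC were present in both libraries but summed to 1331 CPM with the SMC1A guide and 3584 CPM with the control guide, with log2 ratios of -1.50, -1.56, -0.56 and -1.41. Of 8 markers of other cell types, MS4A1, CD2 and ELANE were at 0 in both libraries, and the 8 summed to 15.2 CPM with the SMC1A guide and 5.47 CPM with the control guide, most of it COL1A1. The part of either marker set in the results was not tested.

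A synthetase recognises its amino acid (both glutamate and proline for EPRS1) and the matching tRNAs. The charged tRNA is then carried to the ribosome by an elongation factor. Human cells keep separate nuclear genes for most cytosolic and mitochondrial enzymes, while GARS1 and KARS1 encode enzymes for both compartments. Several cytosolic synthetases sit in a large multisynthetase complex held together by the scaffold proteins AIMP1, AIMP2 and EEF1E1. Uncharged tRNA is sensed by the kinase GCN2, which raises translation of the transcription factor ATF4, and many cytosolic synthetase genes are known as ATF4 targets.

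Cytosolic synthetase mRNAs were lower with the SMC1A guide as a class, and mitochondrial ones less so. The median log2 ratio (SMC1A guide over control guide) was -0.55 over the 19 cytosolic genes, which is 68.3% of the control level, and -0.29 over the 16 mitochondrial genes, or 81.7%. The median over all 11321 genes was -0.05. All 19 cytosolic genes and 14 of 16 mitochondrial genes had a ratio below 0, against 54.3% of all genes, and 17 and 11 did by library totals. With the trend of the ratio on expression level removed, 16 and 13 did, and the class medians were -0.36 and -0.23. The difference of the class medians, cytosolic minus mitochondrial, was then -0.12, against -0.26 with the trend kept. The counting interval lay wholly below 0 for 17 cytosolic and 10 mitochondrial genes, against 38.7% of all genes, and wholly above 0 for 0 cytosolic and 2 mitochondrial genes, against 29.4%. In bulk RNA, fewer cells of a type and less RNA per cell cannot be told apart.

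The differences were small in fold. At least 1.5-fold lower were 7 of 19 cytosolic genes and 2 of 16 mitochondrial genes, against 9.06% of all genes. At least 1.5-fold higher were 0 of 35, against 12.2%. At 2-fold, 0 of 35 were lower, against 2.32% of all genes, and 0 were higher, against 5.11%. The count at 1.5-fold is a count near an edge. TARS1 (-0.60) lay just inside and GARS1 and FARSB (both -0.58) just outside, and 0 cytosolic genes passed under scaling by library totals. That scaling moved the median of all genes to 0.08, the cytosolic median to -0.42 and the mitochondrial median to -0.16.

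**Figure D1:**
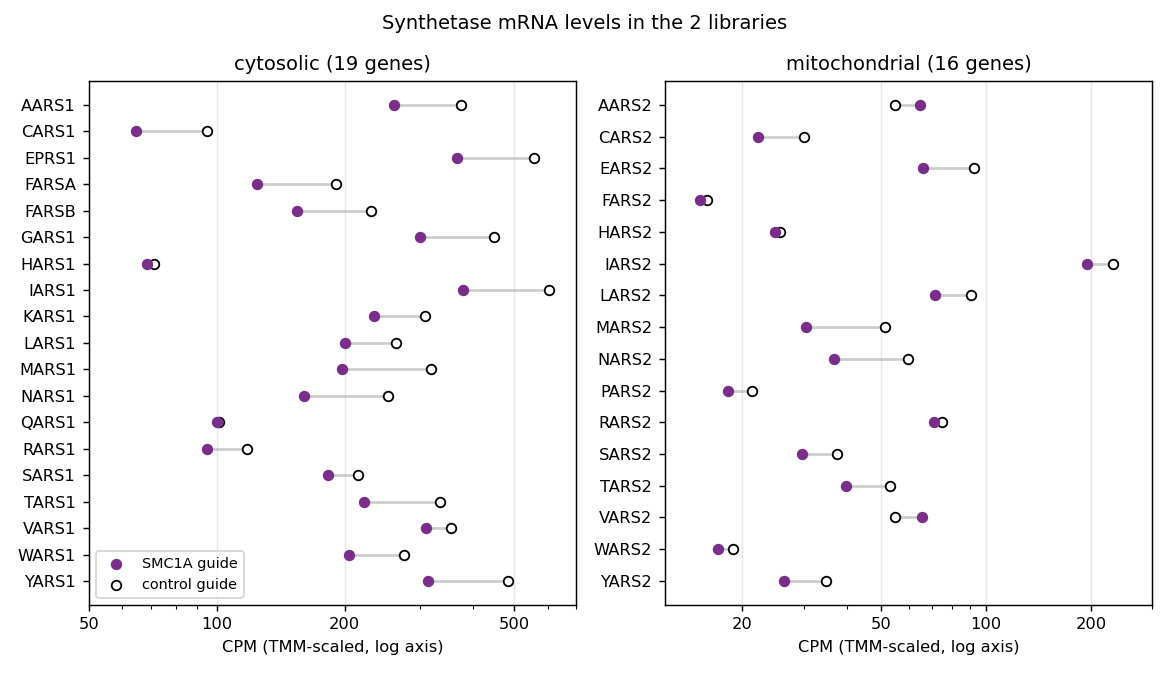
Level of each synthetase mRNA in CPM (TMM-scaled, log axis) in the SMC1A library (filled) and the control library (open), with cytosolic genes on the left and mitochondrial genes on the right. The filled point lies left of the open one for all 19 cytosolic genes and for 14 of 16 mitochondrial genes on the TMM scale, and would for 17 and 11 by library totals. The ratio was below 0 for 16 and 13 with the trend on expression level removed. AARS2 and VARS2 lie the other way.

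A value that needs no scaling is the number of cytosolic counts per mitochondrial count within a library. It was 4.97 with the SMC1A guide (69509 and 13984 counts, interval 4.88 to 5.06) and 5.92 with the control guide (98281 and 16601 counts, interval 5.82 to 6.02). The ratio was thus 0.840 times the control value with the SMC1A guide. The 35 mRNAs together took 0.495% of the SMC1A library (0.492 to 0.498) and 0.626% of the control library (0.622 to 0.630). Expression level differed between the classes too: 17 cytosolic genes and 1 mitochondrial gene were in the fifth of genes with the highest expression, where the median log2 ratio was -0.19 and 9.50% of genes were at least 1.5-fold lower. With the trend of the ratio on expression level removed, the class medians were -0.36 and -0.23.

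**Figure D2:**
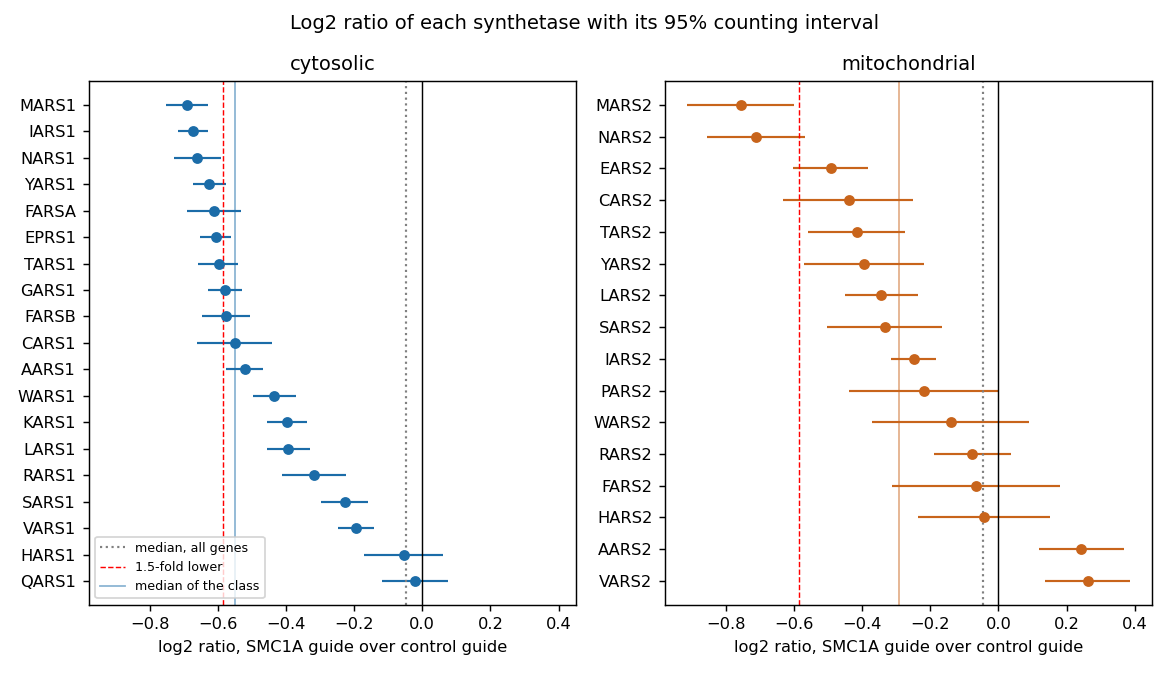
Log2 ratio (SMC1A guide over control guide) of each synthetase mRNA with its 95% counting interval, ordered within each class. The cytosolic genes spread from -0.69 (MARS1) to -0.02 (QARS1), and the mitochondrial genes from -0.76 (MARS2) to 0.26 (VARS2).

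Among the 7 synthetases of the multisynthetase complex the mRNAs ranged from clearly lower to level with the control. MARS1, which charges methionine, was at 197.5 CPM with the SMC1A guide and 318.7 CPM with the control guide (log2 ratio -0.69, interval -0.75 to -0.63), the lowest of the cytosolic class. IARS1, for isoleucine, was at 378.9 CPM with the SMC1A guide and 604.3 CPM with the control guide (-0.67, interval -0.72 to -0.63). EPRS1, which charges both glutamate and proline from a single chain, was at 366.3 CPM with the SMC1A guide and 557.4 CPM with the control guide (-0.61). These 3 had the largest differences of the complex.

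KARS1 (lysine) and LARS1 (leucine) stood between, at 76.0% and 76.2% of their control level, and RARS1 (arginine) at 80.3%. QARS1, for glutamine, was at 99.9 CPM with the SMC1A guide and 101.4 CPM with the control guide (log2 ratio -0.02, interval -0.12 to 0.07), so no difference was detectable. There were 3.79 IARS1 counts per QARS1 count with the SMC1A guide and 5.96 with the control guide. That difference was -0.65 on the log2 scale (interval -0.76 to -0.55), so genes of 1 complex did not share a ratio within counting error. The median was -0.40 over the 7 genes of the complex and -0.56 over the 12 cytosolic genes outside it. The means were closer, at -0.44 and -0.47. The log2 ratios of the summed CPM were -0.53 in the complex (interval -0.55 to -0.51) and -0.49 outside it (-0.51 to -0.47). The order of the groups thus depended on the measure.

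The scaffold mRNAs of the complex were all lower too. AIMP2 was at 44.0 CPM with the SMC1A guide and 64.2 CPM with the control guide (-0.55), and EEF1E1 at 77.8 CPM with the SMC1A guide and 110.3 CPM with the control guide (-0.50). AIMP1 was at 110.3 CPM with the SMC1A guide and 136.9 CPM with the control guide (-0.31). AIMP1 thus stood nearer its control level than AIMP2, by 0.23 on the log2 scale (AIMP2 minus AIMP1 -0.23, interval -0.39 to -0.07).

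Outside the complex, NARS1 (asparagine) was the lowest, with 160.3 CPM with the SMC1A guide and 253.3 CPM with the control guide (log2 ratio -0.66, interval -0.73 to -0.59). YARS1, for tyrosine, was at 314.0 CPM with the SMC1A guide and 484.2 CPM with the control guide (-0.62). TARS1, for threonine, was at 221.7 CPM with the SMC1A guide and 335.6 CPM with the control guide (-0.60). Phenylalanyl-tRNA synthetase has 2 kinds of subunit, and their mRNAs stayed in step. FARSA was at -0.61 and FARSB at -0.58, with 1.24 FARSB counts per FARSA count with the SMC1A guide and 1.21 with the control guide (log2 difference 0.03, interval -0.07 to 0.14).

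GARS1 (glycine) was at 301.0 CPM with the SMC1A guide and 449.5 CPM with the control guide. CARS1 (cysteine) was at 64.8 CPM with the SMC1A guide and 94.8 CPM with the control guide, a log2 ratio of -0.55. These enzymes and AARS1, for alanine, lay close to the class median. AARS1 was at 261.7 CPM with the SMC1A guide and 375.6 CPM with the control guide, a ratio of -0.52. WARS1 (tryptophan), which interferon also induces, was at 204.1 CPM with the SMC1A guide and 275.7 CPM with the control guide (-0.43). The last 3 of this group stood nearer to the control. SARS1 (serine) was at -0.23 (interval -0.30 to -0.16), VARS1 (valine) at -0.19 (interval -0.25 to -0.14) and HARS1 (histidine) at -0.05 (interval -0.17 to 0.06). With the trend on expression level removed, SARS1 was at -0.053, VARS1 at 0.021 and HARS1 at 0.043.

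Of the 19 cytosolic genes, 12 are known as genes that ATF4 induces (AARS1, CARS1, EPRS1, GARS1, IARS1, LARS1, MARS1, NARS1, SARS1, TARS1, WARS1 and YARS1). Their median log2 ratio was -0.59, from MARS1 at -0.69 to SARS1 at -0.23. The other 7 had a median of -0.32, from FARSA at -0.61 to QARS1 at -0.02. The ranges overlapped. The catalytic fold, which divides these enzymes into class I and class II, gave medians of -0.43 over 9 class I and -0.58 over 9 class II genes of the cytosolic enzymes, and of -0.34 over 9 class I and -0.22 over 7 class II genes of the mitochondrial ones. EPRS1 was left out because it carries both folds. Pooled over the compartments, the medians were -0.39 for class I and -0.41 for class II.

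Mitochondrial synthetases charge the tRNAs used to translate the few proteins that the mitochondrial genome encodes. MARS2 was the lowest of all 35 genes, at 30.4 CPM (536 counts) with the SMC1A guide and 51.4 CPM (901 counts) with the control guide, a log2 ratio of -0.76 (interval -0.91 to -0.60). NARS2 followed at 36.6 CPM (645 counts) with the SMC1A guide and 59.9 CPM (1051 counts) with the control guide (-0.71, interval -0.86 to -0.57). These were the 2 mitochondrial genes at least 1.5-fold lower. EARS2, which charges glutamate, was at 65.8 CPM with the SMC1A guide and 92.5 CPM with the control guide (-0.49), and CARS2 at 22.2 CPM with the SMC1A guide and 30.1 CPM with the control guide (-0.44).

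A middle group had ratios from -0.42 to -0.22. It held TARS2 (-0.42), YARS2 (-0.39), LARS2 (-0.34), SARS2 (-0.33), IARS2 (-0.25) and PARS2, the proline enzyme (-0.22). Their intervals lay wholly below 0, that of PARS2 by less than 0.01. WARS2, RARS2, FARS2 and HARS2 had ratios from -0.14 to -0.04 with intervals that held 0. At 267 to 1249 counts with the SMC1A guide and 278 to 1311 counts with the control guide, no difference was detectable for these 4.

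AARS2 and VARS2 were higher with the SMC1A guide, by every scaling tried. AARS2 had 1142 counts (64.8 CPM) with the SMC1A guide and 960 counts (54.7 CPM) with the control guide, a log2 ratio of 0.24 (interval 0.12 to 0.37). VARS2 had 1157 counts (65.6 CPM) with the SMC1A guide and 960 counts (54.7 CPM) with the control guide, a log2 ratio of 0.26 (interval 0.14 to 0.39). Both lie on chromosome 6 (GRCh38), AARS2 at 44299654 to 44313326 on the minus strand and VARS2 at 30908242 to 30926459 on the plus strand. VARS1 lies on the same chromosome (31777518 to 31795953, minus strand), 851059 bases past the end of VARS2, and was lower.

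Genes for the same amino acid in the 2 compartments could be set against each other without any scaling between libraries. For 13 amino acids the set holds 1 gene of each class, and the cytosolic gene had the lower ratio in 10 of the 13. The interval of the difference lay wholly below 0 in 7, wholly above 0 in 0 and held 0 in 6. The median difference was -0.18 on the log2 scale. With the trend of the ratio on expression level removed, an alternative added after seeing the data, the cytosolic gene was lower in 8 of 13, the interval lay wholly below 0 in 4, wholly above 0 in 2 and held 0 in 7, and the median difference was -0.02.

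The alanine pair stood furthest apart. There were 4.04 AARS1 counts per AARS2 count with the SMC1A guide and 6.86 with the control guide, a log2 difference of -0.76 (interval -0.90 to -0.63). For valine there were 4.74 VARS1 counts per VARS2 count with the SMC1A guide and 6.50 with the control guide (-0.46, interval -0.59 to -0.32). For isoleucine the IARS1 count per IARS2 count was 1.95 with the SMC1A guide and 2.61 with the control guide (-0.42, interval -0.50 to -0.34). In the tryptophan, arginine, tyrosine and threonine pairs the cytosolic gene was also the lower one, by -0.29, -0.24, -0.23 and -0.18. With the trend removed, alanine (-0.64), valine (-0.33), isoleucine (-0.36) and arginine (-0.21) kept intervals wholly below 0, while tryptophan (-0.09), tyrosine (-0.02) and threonine (-0.05) had intervals that held 0.

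In the other pairs the interval held 0 with the trend kept. With the trend removed, the interval lay wholly above 0 for serine (0.25) and methionine (0.20). MARS1 and MARS2 were both among the lowest of their class, with a difference of 0.07 (interval -0.10 to 0.24), as were NARS1 and NARS2, with a difference of 0.05 (-0.11 to 0.21). HARS1 and HARS2 were both level with the control, with 2.76 HARS1 counts per HARS2 count with the SMC1A guide and 2.78 with the control guide (-0.01, interval -0.24 to 0.21). HARS1 and HARS2 are near copies that run head to head on chromosome 5, with spans that overlap by 437 bases in GENCODE 29, so their separate counts are uncertain. The serine pair had a difference of 0.11 (-0.08 to 0.29), the leucine pair -0.05 (-0.17 to 0.08) and the cysteine pair -0.11 (-0.33 to 0.11).

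**Figure D3:**
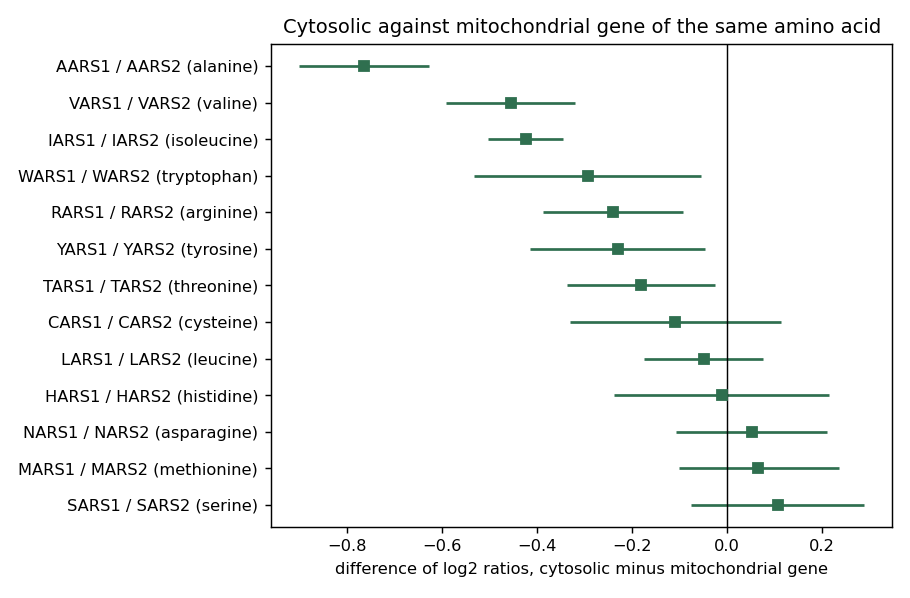
Difference of log2 ratios, cytosolic minus mitochondrial gene, with its exact 95% counting interval, for the 13 amino acids with 1 gene of each class. The interval lies wholly left of 0 for 7 pairs, from alanine at -0.76 to threonine at -0.18, and holds 0 for the other 6. With the trend on expression level removed, not drawn, it lies wholly below 0 for 4 pairs.

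Levels were compared between genes per kilobase of annotated exon (GENCODE 29, all exons of a gene merged), which understates genes with many alternative exons. The median over the cytosolic genes was 39.2 CPM per kilobase with the SMC1A guide and 58.7 with the control guide, and over the mitochondrial genes 9.89 with the SMC1A guide and 12.9 with the control guide. GARS1 had the highest level, 72.5 CPM per kilobase with the SMC1A guide and 108.3 with the control guide, followed by EPRS1 at 67.2 with the SMC1A guide and 102.3 with the control guide. CARS1 and HARS1 had the lowest levels of the cytosolic class, at 6.45 and 8.73 CPM per kilobase with the SMC1A guide and 9.44 and 9.07 with the control guide. Among mitochondrial genes IARS2 had the highest level, at 46.7 CPM per kilobase with the SMC1A guide and 55.5 with the control guide. RARS2 came next, at 27.8 with the SMC1A guide and 29.4 with the control guide. The ranges of the cytosolic and mitochondrial classes overlapped. CARS2 had the lowest level, 2.12 with the SMC1A guide and 2.88 with the control guide. Across the 19 cytosolic genes, level and ratio went together in that genes with more control CPM had the lower ratios (Spearman's rho -0.53, n = 19, as a description, since both axes share the control library).

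Several promoters of cytosolic genes held the same short sequence, most of them at the start. RefSeq promoter windows (GRCh38.p14, 250 bases before to 50 after each annotated start) were found for 30 of the 35 genes, 16 cytosolic and 14 mitochondrial, with AARS2, LARS1, VARS1, VARS2 and YARS1 unmatched. The motif TTGCATCA was searched on both strands. Read on the other strand it is TGATGCAA, a form of the C/EBP-ATF response element through which ATF4 and its partners are known to act on amino acid response genes. It stood in 6 of 16 cytosolic promoters (37.5%), in 0 of 14 mitochondrial promoters, in 1.08% of all 27305 genes with a window and in 0.712% of the 8844 measured genes with one. The looser core TGATGNAA, which includes every TTGCATCA match, stood in 7 of 16 (43.8%), in 1 of 14 (7.14%), in 4.46% of all genes and in 2.43% of the measured ones. The matches are shown because these are the members that hold the motif. Each line is read 5′ to 3′ on the strand of the gene, with the motif in capitals and 10 bases on either side:
MARS1: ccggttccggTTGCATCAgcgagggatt
IARS1: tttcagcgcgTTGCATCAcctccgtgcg
NARS1: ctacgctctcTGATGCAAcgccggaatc
TARS1: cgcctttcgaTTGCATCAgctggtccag
CARS1: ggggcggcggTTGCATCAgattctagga
AARS1: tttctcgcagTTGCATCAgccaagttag
GARS1: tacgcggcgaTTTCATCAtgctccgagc
YARS2: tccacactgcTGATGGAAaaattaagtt

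They lie at chr12:57488054-57488081 (plus strand) for MARS1, chr9:92293693-92293720 (minus) for IARS1, chr18:57621805-57621832 (minus) for NARS1, chr5:33440957-33440984 (plus) for TARS1, chr11:3057408-3057435 (minus) for CARS1, chr16:70289676-70289703 (minus) for AARS1, chr7:30594835-30594862 (plus) for GARS1 and chr12:32756077-32756104 (minus) for YARS2. The match lay within 33 bases of the annotated start in 6 of the 7 cytosolic genes, from position -33 in GARS1 to 15 in NARS1, and at -187 in AARS1. The 6 cytosolic genes with TTGCATCA had log2 ratios from -0.69 to -0.52, with a median of -0.63. The 10 cytosolic genes whose windows lack it ranged from -0.61 to -0.02, with a median of -0.41. EPRS1 (-0.61), FARSA (-0.61) and FARSB (-0.58) have windows without a match and ratios inside the range of the genes that hold it. The ranges overlap, and a match is a description of the letters, not of binding.

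Some partner genes from the related lists were searched too. No match to either form was found for TRIB3 (log2 ratio -1.30), PSAT1 (-1.10), ATF4 (-0.80) or XPOT (-0.73). Whether TRIB3, PSAT1 and XPOT had a window was not recorded. The partner gene ASNS, which encodes asparagine synthetase and is a standard amino acid response gene, held the looser core. CHAC1, an ATF4 target for glutathione breakdown, held TTGCATCA. They are shown for comparison (chr7:97872459-97872486, minus strand, and chr15:40953252-40953279, plus strand):
ASNS: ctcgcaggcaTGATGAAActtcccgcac
CHAC1: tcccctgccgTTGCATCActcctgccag

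The E-box CACGTG, to which MYC and MAX bind, stood in 1 of 16 cytosolic promoters (IARS1) and in 3 of 14 mitochondrial promoters (MARS2, EARS2 and CARS2, 21.4%), against 8.77% of all genes and 13.3% of the measured genes with a window. The mitochondrial count is small, and a link of the E-box to the ratios was not tested. Over the 1173 measured genes with the E-box the median log2 ratio was -0.12, against -0.05 for the measured genes without it. NARS2 (-0.71) had a window without it. MARS2, EARS2 and CARS2 were among the 4 mitochondrial genes with the lowest ratios. Their sites lie at chr2:197705348-197705373 (plus), chr16:23557350-23557375 (minus) and chr13:110706503-110706528 (minus):
MARS2: gcgcctctcaCACGTGctgtcagaac
EARS2: gggagaagccCACGTGtgctattcca
CARS2: ctgggatgcaCACGTGcttcgctaac

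IARS1 and QARS1 were picked after their ratios were seen. The lowest ratio of the complex was that of MARS1 (-0.69), whose window held TTGCATCA and no E-box. IARS1 was the only cytosolic gene whose window held both motifs. EPRS1, of the same complex, had a ratio of -0.61 and a window with neither TTGCATCA nor the E-box. The whole windows of IARS1, with the E-box and then TTGCATCA in capitals, and of QARS1, which holds neither, show a gene of the complex with a low ratio beside the one level with its control (chr9:92293648-92293947 and chr3:49104708-49105007, both minus strand):
IARS1: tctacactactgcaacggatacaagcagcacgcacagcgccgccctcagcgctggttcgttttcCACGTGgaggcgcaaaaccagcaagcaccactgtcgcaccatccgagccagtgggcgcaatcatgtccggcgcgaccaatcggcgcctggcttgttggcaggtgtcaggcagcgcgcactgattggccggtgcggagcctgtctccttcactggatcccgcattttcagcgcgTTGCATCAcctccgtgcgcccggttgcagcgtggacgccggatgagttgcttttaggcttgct
QARS1: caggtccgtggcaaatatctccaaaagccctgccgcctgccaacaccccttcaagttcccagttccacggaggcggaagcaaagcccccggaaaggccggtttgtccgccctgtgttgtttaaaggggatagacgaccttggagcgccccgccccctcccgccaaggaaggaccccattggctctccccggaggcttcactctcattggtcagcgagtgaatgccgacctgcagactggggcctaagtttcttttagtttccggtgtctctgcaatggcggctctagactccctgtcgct

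**Figure D4:**
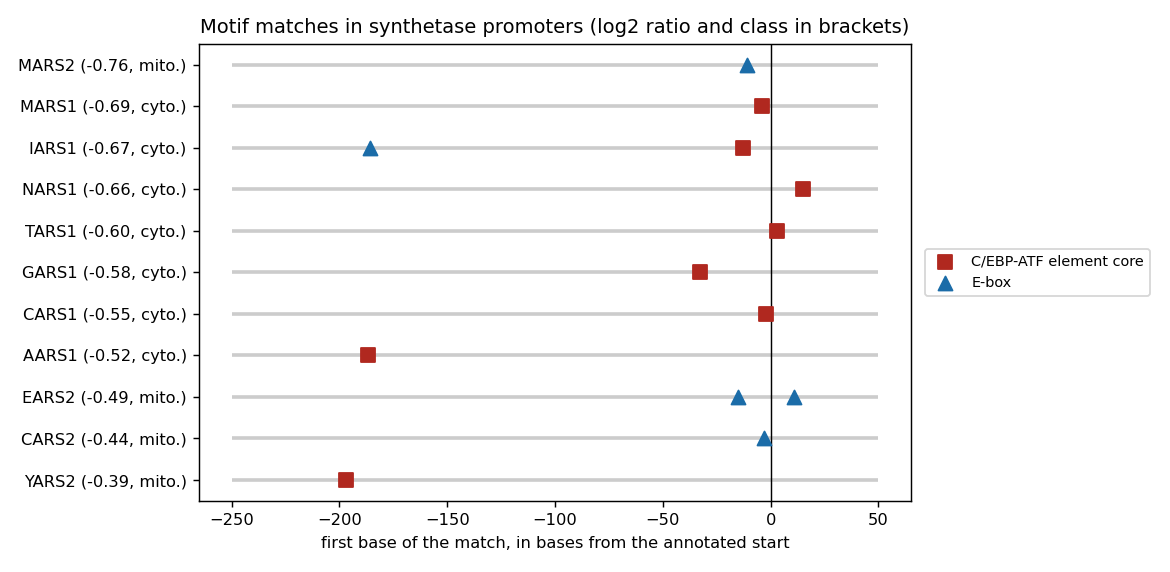
Position of each motif match in the synthetase promoter windows, in bases from the annotated start, with genes ordered by log2 ratio. Squares mark the core of the C/EBP-ATF element, 7 of them in cytosolic genes with ratios from -0.69 to -0.52, and triangles mark the E-box. EARS2 has 2 annotated starts, so its 1 site appears at 2 positions.

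Genes that start close to a synthetase on the opposite strand had a median near that of all genes. Within 1000 bases of the start of 10 of the 35 genes lay the start of another gene with at least 100 counts on the other strand. These 10 neighbours, chosen by position after the members' values were seen, had a median log2 ratio of -0.04, against -0.41 for the 10 synthetases beside them. DDX19B, an RNA helicase gene whose start lies 120 bases from that of AARS1, had 440 counts with the SMC1A guide and 437 with the control guide (0.00, interval -0.19 to 0.20). GARS1-DT, a transcript that runs away from GARS1 from a start 128 bases away, had 537 counts with the SMC1A guide and 566 with the control guide (-0.08). There were 9.89 GARS1 counts per GARS1-DT count with the SMC1A guide and 13.9 with the control guide (log2 difference -0.50, interval -0.68 to -0.31). Beside KARS1, the telomere protein gene TERF2IP was at 0.12. The neighbours of 3 mitochondrial genes had lower ratios than the synthetase: the mitochondrial ribosomal protein gene MRPS12 at -0.53 beside SARS2 (-0.33), the replication origin gene ORC3 at -0.33 beside RARS2 (-0.08), and LYRM4, for iron-sulfur cluster assembly, at -0.21 beside FARS2 (-0.07). GARS1 and GARS1-DT, KARS1 and TERF2IP, and SARS2 and MRPS12 have overlapping spans, and whether the counting used strand is not given in the sources used here.

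Other genes that prepare and deliver charged tRNA were also lower on the TMM scale. The median log2 ratio was -0.05 over all genes and -0.19 over the fifth of genes with the highest expression. Values with the trend on expression level removed are not given for these genes. XPOT, which exports tRNA from the nucleus, was at 220.9 CPM with the SMC1A guide and 367.1 CPM with the control guide (log2 ratio -0.73, interval -0.79 to -0.68), and TRNT1, which adds the CCA end to which amino acids are joined, was at -0.27. The 3 editing enzymes that remove wrongly joined amino acids were at -0.53 (AARSD1), -0.43 (DTD2) and -0.23 (DTD1). The 4 subunit genes of elongation factor 1, which carries charged tRNA to the cytosolic ribosome, ranged from -0.50 (EEF1B2) to -0.26 (EEF1D), with EEF1G at -0.38 and EEF1A1 at -0.34.

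The 4 mitochondrial elongation factor genes had a median log2 ratio of -0.61. TUFM, the mitochondrial elongation factor Tu, was at 256.7 CPM with the SMC1A guide and 407.7 CPM with the control guide (-0.67), TSFM at -0.75, GFM1 at -0.55 and GFM2 at -0.18. Glutaminyl-tRNA in human mitochondria is made by an amidotransferase from glutamyl-tRNA that EARS2 charges, and its subunit genes QRSL1, GATC and GATB were at -0.39, -0.30 and -0.26. MTFMT, which formylates the initiator methionyl-tRNA, had 135 counts with the SMC1A guide and 152 with the control guide (-0.18), and its interval held 0. Of the genes that cut and mature mitochondrial tRNA, TRMT10C was at 31.0 CPM with the SMC1A guide and 66.7 CPM with the control guide (-1.11, interval -1.26 to -0.96), the 1 of 4 at least 2-fold lower, against 2.32% of all genes. PRORP was at -0.50, ELAC2 at -0.40 and HSD17B10 at -0.36. HSD17B10 lies beside SMC1A on chromosome X.

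The genes of the pathway that senses uncharged tRNA differed by step. EIF2AK4, the gene of the sensor GCN2, had 724 counts with the SMC1A guide and 719 with the control guide (log2 ratio 0.00). It is 1 of 4 kinase genes that act on eIF2, and the others are given for comparison. EIF2AK3 was at 0.06 and EIF2AK2 at 0.15. EIF2AK1 was the highest at 0.27, with 416.2 CPM with the SMC1A guide and 344.7 CPM with the control guide. ATF4 itself was at 179.2 CPM with the SMC1A guide and 311.8 CPM with the control guide (-0.80, interval -0.86 to -0.74). All 10 genes of the ATF4 list with at least 100 counts had ratios below 0, against 54.3% of all genes (1 of them, PPP1R15A, was at 0.03 by library totals), with a median of -0.41. At least 2-fold lower were 3 of the 10, against 2.32% of all genes: ASNS (-1.33), TRIB3 (-1.30) and PSAT1 (-1.10), each further from its control level than any synthetase. The rest stood nearer to the control, with CEBPG at -0.51, ATF5 at -0.30, PHGDH at -0.27, SESN2 at -0.24 and PPP1R15A at -0.10. DDIT3 was at -0.15, and its interval held 0. CHAC1, below 100 counts, had 10 counts with the SMC1A guide and 43 with the control guide. MYC was at 220.3 CPM with the SMC1A guide and 610.9 CPM with the control guide (-1.47), and its partner gene MAX at -0.61. The ATF4 and MYC values stand beside those of the synthetases, and their part in them was not tested.

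**Figure D5:**
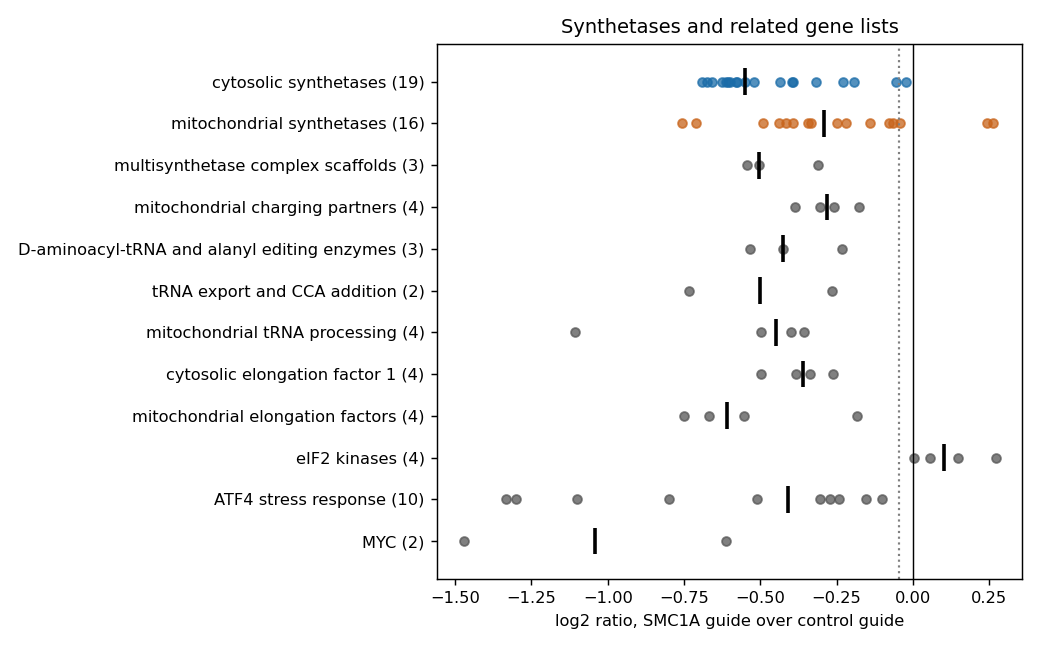
Log2 ratio (SMC1A guide over control guide) of each gene with at least 100 counts in the 2 synthetase classes and in 10 related gene lists, with a bar at each list's median and a dotted line at the median of all genes (-0.05). The eIF2 kinase genes lie at or right of 0, and the other lists lie left of the dotted line apart from 3 mitochondrial and 1 cytosolic synthetase.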

How the data were processed

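Poly(A)-selected RNA of 2 K562 libraries was sequenced as paired reads of 100 bases with a strand-preserving kit, per the labels' protocols. The file that the authors deposited holds each gene's estimated count, unscaled and rounded to a whole number. STAR 2.7.10a, Salmon 1.10.1, DESeq2 1.42.1 and build hg38 (GRCh38) are named in the submitters' processing notes without roles, and the gene annotation is not given in the sources used here. Salmon divides reads among similar transcripts, so counts of near copies depend on that division.

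Library sizes were scaled with TMM (edgeR 4.0.16, R 4.3.3), and log2 ratios used edgeR's formula with a prior count of 1. Exact intervals came from scipy 1.17.1 (Clopper-Pearson for ratios of counts and shares, the conditional odds ratio for differences between 2 genes). They cover counting error only, since each guide had 1 library. Reads lack molecular identifiers, so copies of a molecule could not be told apart and the intervals may be too narrow. Genes needed 100 counts summed over both libraries. With 1 library per guide no test was run. Symbols came from the gene-name table, spans and exon lengths from GENCODE 29 (GRCh38), and promoters from RefSeq (GRCh38.p14). The formula was tested on simulated data. All members and the genes of the related lists are named, and other genes are said to have been chosen later. Members and lists were chosen with earlier results of these data known. Alternatives were 4 other scalings, among them DESeq2 1.42.0 size factors, prior counts of 0.25 and 5, removal of the expression trend, other filters, thresholds and class members.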

Additional observations from a re-analysis of the deposited data

How the results depend on the processing

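No paired analysis was possible because each guide had 1 library, and for the same reason no library could be left out. DESeq2 size factors, upper quartile factors, TMM without mitochondrially encoded and globin genes and both other prior counts kept all 35 log2 ratios within their counting intervals. Library totals moved 25 of 35 past theirs, to a cytosolic median of -0.42 and a mitochondrial median of -0.16. Removal of the trend with expression level moved 17 past theirs, and also 1 more, VARS1, whose sign turned. The cytosolic median became -0.36 and the difference of the class medians -0.12 (otherwise -0.26). Above 0 came 4 more genes: VARS1 at 0.021, HARS1 at 0.043, QARS1 at 0.10 and RARS2 at 0.022. Of these VARS1 was the one whose counting interval had excluded 0. Its turn follows from subtracting the trend at its level, and what underlies the trend was not tested. Removal of the trend also left 4 of the 7 amino acid pairs with an interval wholly below 0. The 7 cytosolic genes at least 1.5-fold lower became 0 by library totals, 0 with the trend removed, 0 at 2-fold and 3 with the entire interval past 1.5-fold, and the 2 mitochondrial genes became 1, 2, 0 and 1. Counting genes whose interval lay wholly below 0, a threshold chosen after seeing the data, gave 17 and 10. Without GARS1 and KARS1, cytosolic counts per mitochondrial count were 4.30 with the SMC1A guide and 5.12 with the control guide. Counts of 267 to 1311 limit what can be seen for the mitochondrial genes near 0.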

Other observations

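Of 8844 measured genes with a promoter window, 63 held TTGCATCA, 6 of them the cytosolic synthetases above. Their median log2 ratio was -0.21, against -0.05 for the 8781 genes without it, and 14.3% of the 63 were at least 1.5-fold lower, against 9.06% of all genes. Without the 6 synthetases the 57 others had a median of -0.14, and 5 of them (8.77%) were at least 1.5-fold lower, a share near that of all genes. The looser core TGATGNAA was held by 215 measured genes, with a median of -0.05 against -0.06 for the rest. The E-box CACGTG was held by 1173, with a median of -0.12 against -0.05. These values were computed after the synthetase values were seen and carry no test.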
